A study of Mus musculus with 12 samples.

Results

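The genes described here encode the mouse receptors for serotonin, dopamine, noradrenaline and adrenaline, and the muscarinic receptors for acetylcholine. They were taken by gene symbol from the protein-coding genes on autosomes in GENCODE release M21, and the rule itself uses names only. This gave 32 genes of 20807. There were 13 serotonin receptor genes (Htr), 5 dopamine receptor genes (Drd), 3 alpha-1 and 3 alpha-2 adrenergic receptor genes (Adra1 and Adra2), 3 beta adrenergic receptor genes (Adrb) and 5 muscarinic receptor genes (Chrm). Htr2c matched the symbols but was not included, because it is on the X chromosome.

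Each gene was scored against 1 list of H3K27me3 sites in iMEF cells, which are immortalized mouse embryo fibroblasts. In all groups the floxed exon 4 of Ash2l had been deleted, and the cells lived on human ASH2L tagged with FKBP12F36V, introduced by lentivirus, which dTAG directs to degradation. For its H3K27me3 ChIP-seq the paper names 1 clone of these cells, NG3. The 8 H3K27me3 libraries comprised 2 of untreated cells and 2 each after 16 h, 24 h and 48 h of dTAG. The 4 input libraries, sheared chromatin without immunoprecipitation, comprised 2 of untreated cells and 2 after 48 h of dTAG. The list joins all samples and holds only positions. The list comes from the second of the study's H3K27me3 experiments, and the first, with a list of its own, was not used here. A separate list of sites that the study found changed at each time point was not used either. From the pooled list no receptor gene could be compared between untreated and treated cells, no replicate error could be given, and the depth of the libraries is unknown here.

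H3K27me3 is the trimethylation of lysine 27 of histone H3. Polycomb repressive complex 2 places it, and it is found over developmental and tissue-restricted genes in cells that do not use them. Monoamine and muscarinic receptors are best known from neurons, where they tune excitability and transmitter release, and from heart, smooth muscle, gut and fat. All except the 5-HT3 receptors, which are ion channels opened by serotonin, are G protein-coupled receptors. Those coupled to Gs raise cyclic AMP, those coupled to Gi lower it, and those coupled to Gq activate phospholipase C beta. CpG islands (CGIs), stretches of DNA rich in the dinucleotide CpG, mark many promoters and are common places of Polycomb binding in vertebrate genomes.

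As examples of promoters of marked and unmarked receptor genes, sequence before the gene start is given for 6 genes. The first 4 are those with the largest covered share of the gene among genes with a site over a transcription start site (TSS) and a promoter in the RefSeq table, with no more than 1 from each family. Adra2b and Adra2c were tied at the top of theirs, as were Drd1 and Drd5, and the first by symbol of each pair is shown. The window of Adra2c, from 250 bp before to 50 bp after its start, holds 7 CpGs, against 29 in that of Adra2b. The last 2 are the receptor genes farthest from any site. Bases are those of RefSeq on GRCm38.p6, 5′ to 3′ on the strand of the gene and before the first annotated exon, and capitals mark CpG dinucleotides.
Adra2b: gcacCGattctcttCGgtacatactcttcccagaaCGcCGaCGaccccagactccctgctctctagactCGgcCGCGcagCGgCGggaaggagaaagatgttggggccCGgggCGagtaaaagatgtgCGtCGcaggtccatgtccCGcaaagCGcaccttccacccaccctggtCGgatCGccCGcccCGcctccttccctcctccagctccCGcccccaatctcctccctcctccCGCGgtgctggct
Adrb1: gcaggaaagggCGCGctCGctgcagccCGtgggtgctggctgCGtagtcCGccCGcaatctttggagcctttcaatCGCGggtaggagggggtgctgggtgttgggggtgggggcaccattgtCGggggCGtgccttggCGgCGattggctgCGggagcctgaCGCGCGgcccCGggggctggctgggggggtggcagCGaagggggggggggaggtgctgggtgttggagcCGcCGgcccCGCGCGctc
Drd1: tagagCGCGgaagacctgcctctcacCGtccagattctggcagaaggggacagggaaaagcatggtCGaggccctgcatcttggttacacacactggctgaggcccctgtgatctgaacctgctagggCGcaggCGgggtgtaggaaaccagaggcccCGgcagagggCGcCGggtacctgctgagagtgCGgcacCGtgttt
Htr6: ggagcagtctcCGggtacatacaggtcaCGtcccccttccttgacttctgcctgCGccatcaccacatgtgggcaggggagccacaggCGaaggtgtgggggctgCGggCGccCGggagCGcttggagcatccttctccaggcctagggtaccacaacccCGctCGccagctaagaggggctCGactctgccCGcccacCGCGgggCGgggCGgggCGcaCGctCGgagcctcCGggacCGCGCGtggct
Htr1b: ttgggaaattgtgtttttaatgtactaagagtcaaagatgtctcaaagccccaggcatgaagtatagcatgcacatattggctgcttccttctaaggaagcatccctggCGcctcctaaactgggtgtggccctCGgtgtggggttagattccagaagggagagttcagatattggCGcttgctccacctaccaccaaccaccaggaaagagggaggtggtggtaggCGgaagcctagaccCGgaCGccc
Htr2a: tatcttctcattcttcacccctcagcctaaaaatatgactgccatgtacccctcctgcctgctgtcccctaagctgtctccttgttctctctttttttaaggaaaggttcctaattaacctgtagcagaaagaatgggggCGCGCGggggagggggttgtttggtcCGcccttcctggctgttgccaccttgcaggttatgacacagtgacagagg
The stretch of Adra2b is chr2:127362929-127363178 on the plus strand and holds 23 CpGs in 250 bp. That of Adrb1, chr19:56721867-56722116 on the plus strand, holds 24 in 250 bp. That of Drd1, chr13:54055706-54055908 on the minus strand, holds 11 in 203 bp. All bases of these stretches lay inside an H3K27me3 site, as did all of Htr6, chr4:139075571-139075820 on the minus strand, with 23 CpGs in 250 bp. The stretches of the last pair held no base of a site. Htr1b, chr9:81633833-81634082 on the minus strand, holds 6 CpGs in 250 bp, and Htr2a, chr14:74640624-74640839 on the plus strand, holds 4 in 216 bp. These examples do not stand for all receptor genes. Htr1b did have a CGI within 1 kb of a TSS. The window of Htr3b from 250 bp before to 50 bp after its start lay wholly inside a site and holds 2 CpGs.

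Most of the receptor genes had an H3K27me3 site reaching to within 1 kb of a start. A site was called TSS-proximal if any base of it lay no more than 1 kb from the TSS of any transcript of the gene. Of the 32 genes, 24 (75%) had a TSS-proximal site, against 26.9% of all autosomal protein-coding genes. When the centre of the site had to lie in this window, the count was 14 genes, against 18.3% of all genes. In 22 genes (68.8%) a site lay over a TSS itself, against 21.5% of all genes. The bodies of the genes were often covered as well. At least 50% of the gene span, from the first to the last annotated base, was covered in 13 genes (40.6%), against 10.2% of all genes. In 5 genes, Adra2b, Adra2c, Adrb1, Drd1 and Drd5, the whole span lay inside a single site, against 2.87% of all genes whose whole span was covered. No site touched the span of 6 receptor genes (18.8%), whereas this was so for 69.6% of all genes.

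The covered share of the span varied widely among the receptor genes, from 0% to 100% with a median of 22% and quartiles of 1.3% and 82.2%. Over all autosomal protein-coding genes the median was 0% and the mean 11.4%, compared with a mean of 39.4% over the receptor genes. These are counts over genes in 1 pooled list. Genes are not replicates of a condition, so no test was made of the difference.

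**Figure D1:**
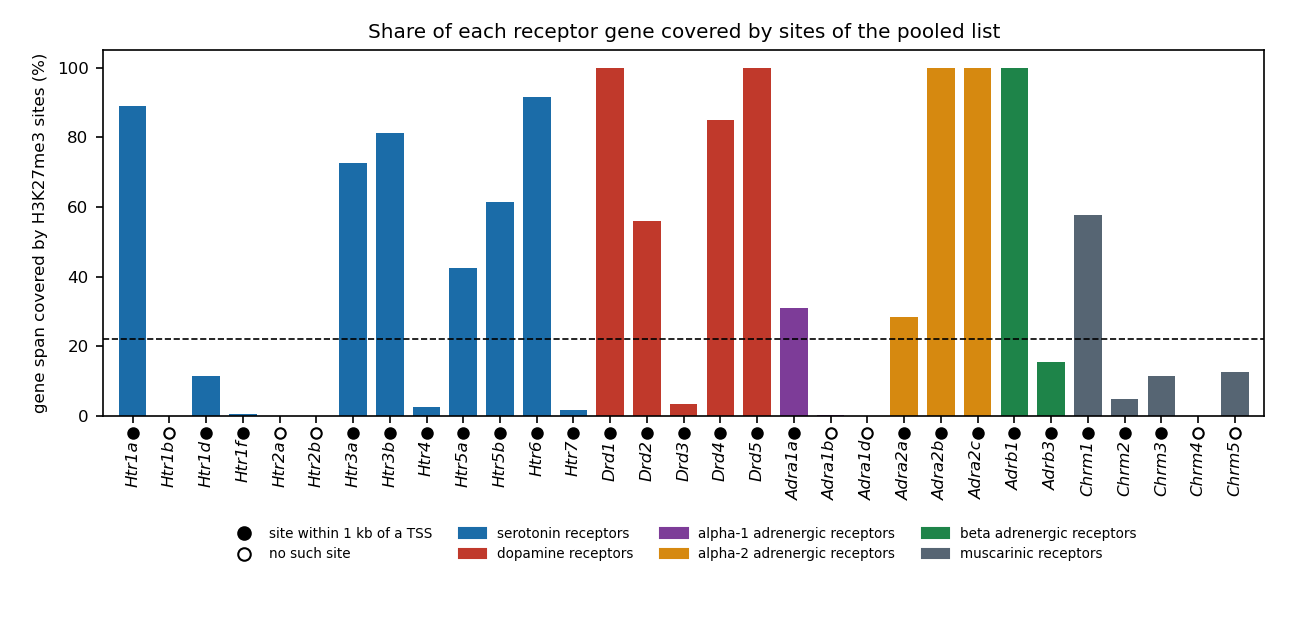
Bars show the percentage of the gene span covered by H3K27me3 sites for 31 of the 32 receptor genes, coloured by family. Filled circles mark genes with a TSS-proximal site, open circles genes without, and the dashed line is the median of 22%. The bars at 100% are Drd1, Drd5, Adra2b, Adra2c and Adrb1, and the 7 open circles stand under bars of 12.5% or less.

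The sites over the starts of receptor genes were wide. The 26 sites within 1 kb of a receptor TSS had a median width of 4623 bp and ranged from 218 to 36835 bp. Of these, 11 (42.3%) were at least 10000 bp wide. The 8028 sites near a TSS of any autosomal protein-coding gene had a median of 2588 bp, and 14.6% of them reached this width. None of the 26 sites was near the TSSs of more than 1 receptor gene.

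Coverage was highest just downstream of the gene start. In each bin of 200 bp between 200 and 1000 bp downstream of the gene start, 68.8% of the bases of the 32 genes were covered. Over all genes the highest values, 18.6% to 18.9%, lay between 0 and 1000 bp downstream. Over 10 kb on each side, a mean of 34.1% of the bases was covered upstream and 44.1% downstream in the receptor genes. Over all genes the order was the other way, with 14.6% upstream and 12.8% downstream. The downstream window runs past the 3′ end of the 11 receptor genes under 10 kb.

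**Figure D2:**
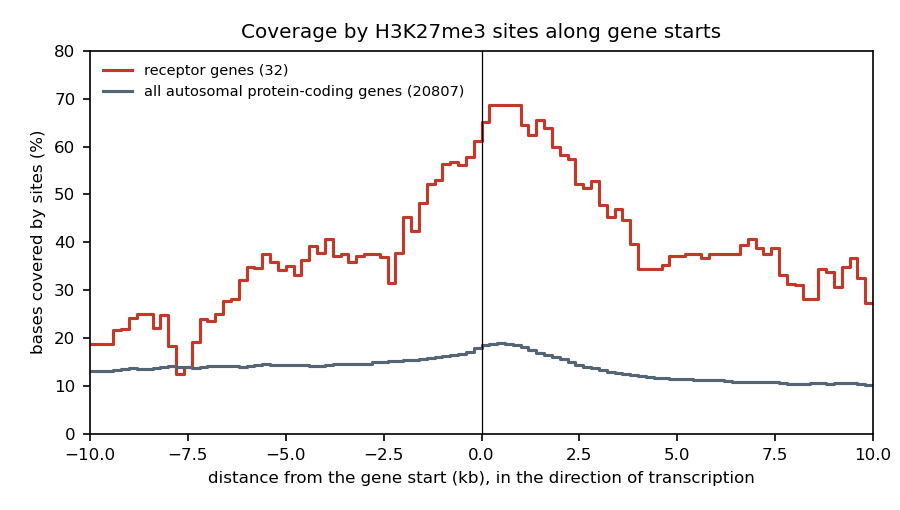
The percentage of bases covered by H3K27me3 sites is plotted in bins of 200 bp over 10 kb on either side of the gene start, for the 32 receptor genes and for all 20807 autosomal protein-coding genes. The receptor genes reach 68.8% just downstream of the start and fall to 18.8% in the first and 27.3% in the last bin, with 1 dip below the line of all genes in the upstream part.

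All 5 dopamine receptor genes had a site over a TSS. Drd1 and Drd5 encode the Gs-coupled D1 and D5 receptors, of which D1 is the most abundant dopamine receptor of the striatum. The whole 4523 bp of Drd1 lay in a site of 17228 bp (chr13:54045713-54062940), and the whole 3152 bp of Drd5 in a site of 14356 bp (chr5:38312501-38326856). In both genes the site also ran several kilobases past either end. The Gi-coupled members of the family were covered less evenly.

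Drd4, the gene of the D4 receptor, had a single site of 5433 bp (chr7:141290357-141295789) over its start, which covered 84.9% of the span and the whole coding sequence. Drd2, the gene of the D2 receptor, which is the target of antipsychotic drugs and the autoreceptor of dopamine neurons, had 20 sites in its span of 67551 bp. The site over its TSS was 3934 bp wide (chr9:49338412-49342345) and held no coding base. A wider one of 15517 bp (chr9:49379584-49395100) lay within the gene, from 38957 to 54473 bp downstream of the start, and contained no exon. Together the sites covered 56% of the Drd2 span and 60.8% of its coding sequence. Drd3, the gene of the D3 receptor of limbic areas, was the exception in extent. A site of 1170 bp (chr16:43753914-43755083) lay over its start and one of 218 bp before it, but only 3.36% of the 68907 bp of the gene was covered. By covered share the family was therefore split into 4 genes of 56% or more and Drd3 far below.

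Of the 13 serotonin receptor genes, 10 had a TSS-proximal site. Covered shares ran from 0% to 91.5%, with a median of 11.3%. Htr6 encodes a Gs-coupled receptor found almost exclusively in brain, and it had the highest share. Its main site of 13821 bp (chr4:139063298-139077118) began upstream of the start and overlapped 12273 of the 14463 bp of the gene. Over 3 sites 91.5% of the span and 61.3% of the coding sequence were covered. Htr1a, the Gi-coupled autoreceptor of serotonin neurons, followed with 89%, in a single site of 4810 bp (chr13:105442820-105447629) that took in the whole coding sequence.

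The 5-HT3 channel subunit genes Htr3a and Htr3b lie close together on chromosome 9. Htr3a was covered to 72.5% of its span and Htr3b to 81.3%, and neither gene had a CGI within 1 kb of a TSS. A site of 16645 bp (chr9:48903402-48920046) lay over the start of Htr3a and one of 11843 bp (chr9:48956861-48968703) over that of Htr3b. From the end of Htr3a to the start of Htr3b, a region of 65778 bp, 16 sites covered 76.1% of the bases. Just beyond the 3′ end of Htr3a lay a site of 93448 bp (chr9:48805290-48898737), wider than any site over a receptor start. This site contained the TSS of a gene outside the family. Drd2 is on the same chromosome, and in the 375636 bp between it and Htr3b, 18.8% of the bases were covered.

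The other serotonin receptor genes with a TSS-proximal site were covered in part. Htr5b, whose human counterpart is a pseudogene, had 3 sites over 61.3% of its span, among them one of 4249 bp at the start. A further site of 16933 bp lay upstream, outside the span. Its paralog Htr5a had 4 sites over 42.6%, and those took in the whole coding sequence. In the other genes sites covered little beyond the start. Htr1d, a receptor targeted by the triptans, had a site of 3695 bp (chr4:136422184-136425878) that covered 11.3% of the span and no coding base. Htr4, a Gs-coupled receptor that promotes gut motility, had one of 4176 bp over its start (chr18:62322118-62326293) and 2.39% of 172374 bp covered. Htr7, also Gs-coupled, had a lone site of 1550 bp (chr19:36055915-36057464), which was 1.57% of its span. Htr1f had a lone site of 898 bp (chr16:65104776-65105673) that began 181 bp downstream of the TSS, 0.496% of its span. For Htr7 and Htr1f no other site was found in the 100 kb on either side.

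**Figure D3:**
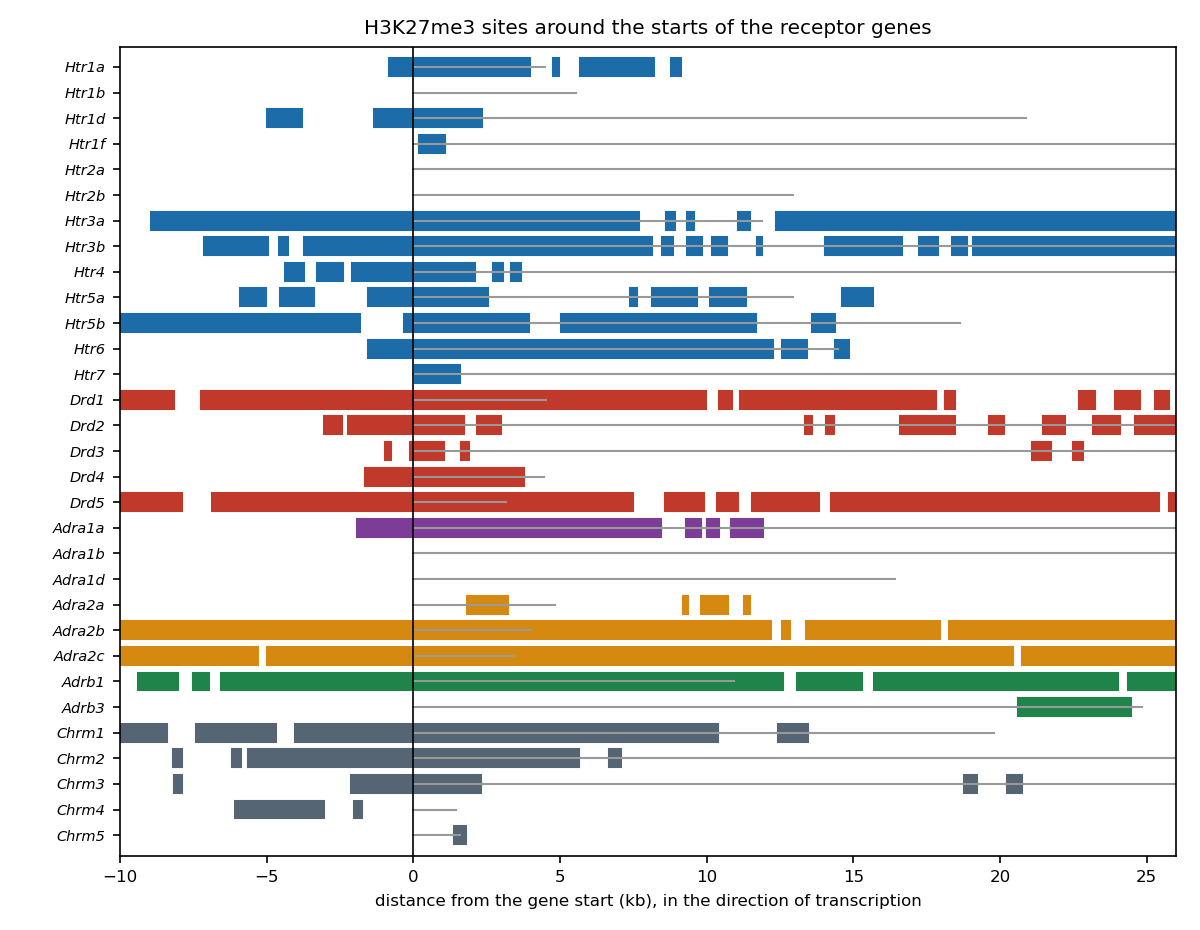
Each row shows the H3K27me3 sites (bars, coloured by family) from 10 kb before to 26 kb after the start of 31 of the 32 receptor genes, with the gene as a grey line and the start at 0. Sites span the start and the whole gene in Drd1, Drd5, Adra2b, Adra2c and Adrb1, sit at the start alone in Htr1f and Htr7, and are missing from the window in Htr1b, Htr2a, Htr2b, Adra1b and Adra1d.

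The adrenergic receptor genes are described by subfamily. The alpha-2 receptors are Gi-coupled and restrain noradrenaline release, and all 3 genes had a TSS-proximal site. Adra2b lay in the widest site at any receptor start, 36835 bp (chr2:127338562-127375396), which also contained the TSS of Astl, the gene of an oocyte protease. Adra2c lay in a site of 25439 bp (chr5:35273337-35298775), and 92.2% of the 100 kb on either side of the gene was covered, the highest value of the 32. Adra2a, the gene of the alpha-2A receptor that mediates sedation by clonidine-like drugs, was the weak member. A single site of 1379 bp (chr19:54045997-54047375) began 737 bp downstream of its nearer TSS and covered 28.5% of the span but 83.2% of the coding sequence.

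The beta receptors are Gs-coupled. Adrb1, the main beta receptor of the heart, lay in a site of 19183 bp (chr19:56715627-56734809), which covered all 10915 bp of the gene. Adrb3, known for driving lipolysis and heat production in fat, had 1 site of 3845 bp (chr8:27226162-27230006). This site covered 15.5% of the annotated span but 100% of the coding sequence.

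The alpha-1 receptors are Gq-coupled and contract vascular smooth muscle. Only Adra1a of these 3 genes had a site at a TSS, of 10362 bp (chr14:66633334-66643695), and 41 sites in its span covered 31% of 135918 bp and the whole coding sequence. Adra1b had 1 site of 369 bp inside its span of 126605 bp, which lay 19664 bp from a TSS and covered 0.291%. Adra1d had none, with the nearest site 32384 bp from its TSS. Both Adra1b and Adra1d had a CGI within 1 kb of a TSS, whereas Adra1a did not.

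The muscarinic receptor genes carried little of the mark over their coding sequence, with at most 13% of it covered. Chrm1, the Gq-coupled M1 receptor of cortex and hippocampus, had a site of 14405 bp at its start (chr19:8659770-8674174) and 57.7% of its span covered. The coding sequence of Chrm1 lies in the last part of the gene, and 0% of it was covered. Chrm2, the Gi-coupled M2 receptor that slows the heart, was similar, with a site of 11268 bp over its start (chr6:36382462-36393729), 4.83% of 140331 bp covered and 0% of the coding sequence. Chrm3, the Gq-coupled M3 receptor of glands and smooth muscle, is the longest of the 32 genes with 485362 bp. It had a site of 4436 bp over its start (chr13:10358525-10362960) and 66 sites in the span, which covered 11.4% of the gene and 13% of the coding sequence. In all 3 the site over the start held no coding base. Chrm3 had a second TSS-proximal site, of 229 bp (chr13:9878002-9878230), which lay 768 bp from the TSS of a short transcript and wholly in coding sequence.

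Chrm4 and Chrm5 had no TSS-proximal site by GENCODE, but both were near the limit. Chrm4 encodes the Gi-coupled M4 receptor of the striatum, and its nearest site, of 276 bp, lay 1738 bp upstream. The GENCODE model of Chrm4 is only 1440 bp long and begins with the coding exon. RefSeq places a start further upstream, inside a site of 3024 bp (chr2:91921165-91924188). With RefSeq starts in place of GENCODE TSSs, a choice made after seeing the data, Chrm4 was therefore counted and 25 of 32 receptor genes (78.1%) had a TSS-proximal site, against 26.2% of 20558 genes. Chrm5, the M5 receptor of dopamine neurons, had the highest covered share among genes without a site at the TSS. A site of 391 bp (chr2:112478980-112479370) lay 1399 bp from its TSS and covered 12.5% of the 1599 bp of the gene.

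The receptor genes without a site at the TSS lay at very different distances from the nearest one. Besides Chrm4, Chrm5, Adra1b and Adra1d, they included Htr2b, Htr2a and Htr1b. Htr2b encodes the Gq-coupled 5-HT2B receptor of heart valves. Its nearest site was 48305 bp away, although 24% of the 100 kb on either side was covered. Htr2a, the cortical target of psychedelic drugs, was 375389 bp from a site, a distance reached or passed by 4.78% of all genes. Htr1b, a Gi-coupled receptor on axon terminals, was 1517299 bp from a site, and only 0.457% of all genes were at least as far. Htr1b and Htr2a thus stood in long stretches without any listed site, while the other 6 genes were within 48305 bp of one. None of the 32 genes has a second copy on a patch sequence of GRCm38.p6.

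The genes were also grouped by the G protein they use, and no test was made between these classes. Of the Gs-coupled receptors 7 of 8 had a TSS-proximal site, and 11 of 13 Gi-coupled receptors did, the exceptions being Htr1b and Chrm4. Of the Gq-coupled receptors 3 of 8 (37.5%) had one, namely Adra1a, Chrm1 and Chrm3, which is near the 26.9% of all genes. Both channel subunits had one, and Htr5b, which also had one, was assigned to no class. The median covered share was 53.5% for the Gs-coupled, 28.5% for the Gi-coupled and 5.86% for the Gq-coupled genes. The ranges overlapped, from 0% to 100% in the Gs and Gi classes and from 0% to 57.7% in the Gq class. A CGI was present at 8 of 8, 10 of 13 and 3 of 8 genes of these classes, so that class and CGI went together, and their parts in the counts were not tested.

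A CGI lay within 1 kb of a TSS in 22 receptor genes (68.8%), against 59.2% of all genes. Of these 22, 18 (81.8%) had a TSS-proximal site, compared with 26.4% of all genes with a CGI. Of the 10 receptor genes without a CGI, 6 (60%) had one, compared with 27.7% of all genes without. These 6 were Adra1a, Chrm1, Drd3, Htr3a, Htr3b and Htr5a. In the RefSeq promoter table, which held 24 of the 32 genes, windows from 250 bp before to 50 bp after the start had a median of 15.5 CpGs in the 18 genes with a site, with a range from 2 to 46. The 6 genes without a site had a median of 5 and a range from 3 to 30, and all 31396 promoters a median of 7. The ranges overlapped almost entirely. The value of 30 belongs to Chrm4, whose RefSeq window lies inside the site described above. Among genes with a site, Htr7 had 46 CpGs, a number reached by 1.7% of promoters, while Htr3b and Drd3 had 2. The window of Drd3, chr16:43761971-43762270, is at a later start of the gene and held no base of a site.

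The median covered share was lower in the longer classes of receptor genes. Of the 11 genes under 10 kb, 7 had a TSS-proximal site and the median covered share was 84.9%. Of the 11 genes from 10 to 50 kb, 9 had one and the median was 57.7%. Of the 10 longer genes, 8 had one but the median was 2.88%. At least 50% of the span was covered in 6, 6 and 1 receptor genes of these classes. Over all genes this share also fell with length, from 14.7% to 9.31% and 4.97%. Among all genes of these length classes, 23.2%, 25.5% and 35.2% had a site, so that the receptor genes were above their length class in each. The count was the same by number of coding exons, with 12 of 16 genes among those with 1 coding exon and 12 of 16 among those with several. The whole coding sequence was covered in 11 receptor genes, part of it in 10 and none in 11, and over all genes with a coding sequence 5.75% had it covered whole.

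Covered genes tended to stand in covered surroundings. Over the 32 genes, Spearman's rho between the covered share of the span and that of the 100 kb on either side was 0.72. This is a description of genes in 1 list, in which Htr3a and Htr3b lie in the surroundings of each other and some sites run past the ends of a gene. With the logarithm of the span rho was -0.32, with the GC content of the promoter 0.32 and with its CpG ratio 0.18. The median share of the surroundings was 7.47%, compared with 6.02% over all genes, and values ranged from 0% to 92.2%. Htr6, Htr1a and Drd4 were covered to 91.5%, 89% and 84.9% while 3.25%, 9.46% and 6.64% of their surroundings were covered. High coverage of a gene was therefore also found where less than 10% of the surroundings was covered.

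**Figure D4:**
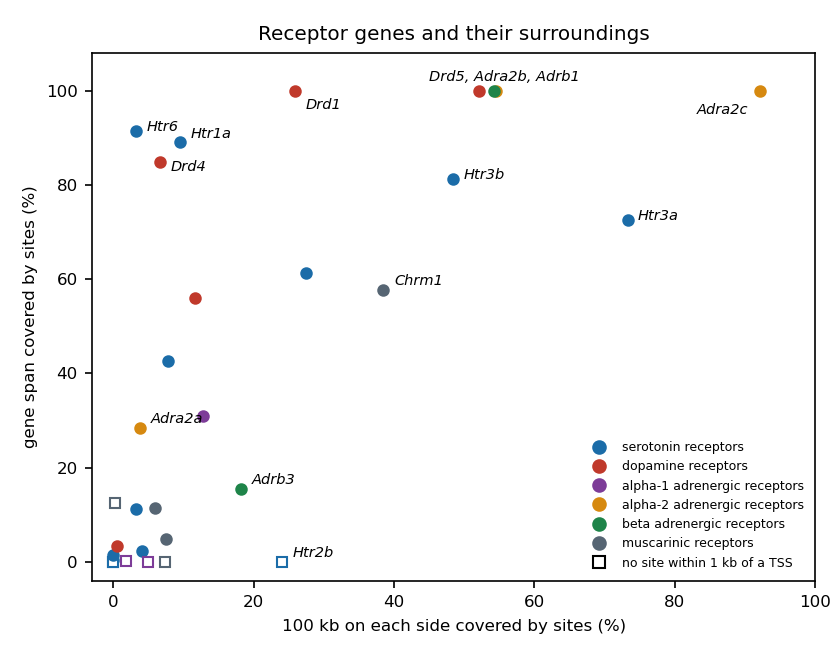
Each point is 1 of 31 of the 32 receptor genes, with the percentage of the 100 kb on either side covered by H3K27me3 sites on the x axis and that of the gene span on the y axis. Circles are genes with a TSS-proximal site and open squares genes without. Adra2c stands at the upper right with 92.2% of its surroundings covered, Htr6, Htr1a and Drd4 at the upper left, and Htr2b is the open square with 24%.

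Genes that make, move or sense the same transmitters were scored in the same way. Of 11 genes for enzymes of synthesis and breakdown, 9 had a TSS-proximal site, among them Th and Tph2, which encode the rate-limiting enzymes of catecholamine and of neuronal serotonin synthesis, and Chat, which makes acetylcholine. Bche, which breaks down choline esters, was among the 2 without. Of 9 transporter genes 8 had one, including Slc6a2, Slc6a3 and Slc6a4 for noradrenaline, dopamine and serotonin uptake, the exception being the choline transporter Slc5a7. Among other receptors for related ligands, all 4 histamine receptor genes and 12 of 16 nicotinic receptor subunit genes had one. None of the 15 trace amine receptor genes did. Most of these are olfactory receptors, none had a CGI within 1 kb of a TSS, and all were between 2856 and 68146 bp from a site.

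The intracellular machinery of these receptors, much of which is used in all cells, was read against the same 26.9% of all genes. A TSS-proximal site was found at 12 of 31 G protein subunit genes (38.7%). These were Gna14, Gna15, Gnai1, Gnal, Gnao1, Gnas, Gnat1, Gnaz, Gng4, Gng7, Gng8 and Gng13, among which Gnas and Gnai1 are broadly used and Gnal and Gnat1 are known from olfactory and photoreceptor signalling. It was found at 9 of 14 genes for adenylyl cyclases and phospholipases C beta (64.3%), and at 2 of 8 genes for receptor kinases and arrestins (25%). The latter were Grk1, the rhodopsin kinase, and Grk3. As points of comparison, 40 of 44 glutamate and GABA receptor genes (90.9%) and 79 of 91 potassium channel genes (86.8%) had a TSS-proximal site. The receptor genes described here were below both in this count and above the former in median covered share, with 22% against 2.73% in the glutamate and GABA receptor genes and 39.4% in the potassium channel genes. The median span was 15448 bp in the receptor genes and 129820 bp in the glutamate and GABA receptor genes, and the receptor genes of 50 kb or more had a median covered share of 2.88%. No test was made of these differences.

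**Figure D5:**
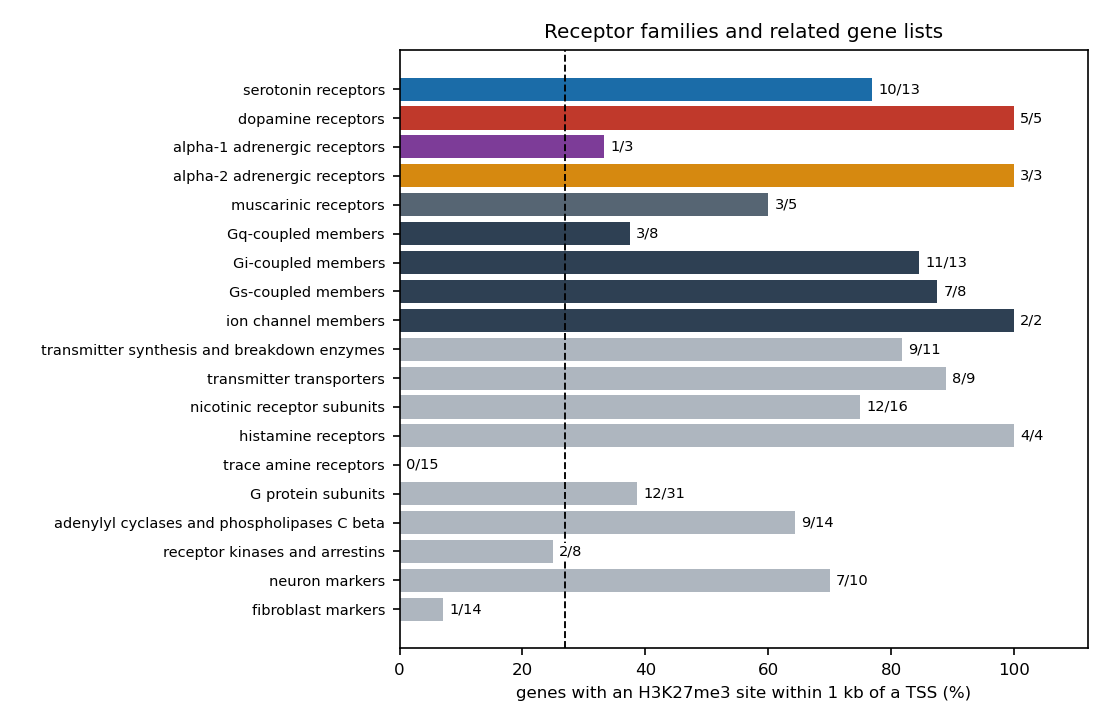
Bars give the percentage of genes with a TSS-proximal H3K27me3 site (within 1 kb) for the serotonin, dopamine, alpha-1, alpha-2 and muscarinic receptors, for the receptors by coupling, and for related gene lists, with the number of genes beside each bar. The dashed line is the 26.9% of all autosomal protein-coding genes. The dopamine and alpha-2 receptors, the ion channel receptors and the histamine receptors reach 100%, while the Gq-coupled receptors with 3 of 8 are nearest to the line among the classes of coupling.

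The list held 101389 sites, of which 96090 were on autosomes. It contains no expression, so the labelled cell type could be read only from where sites were missing. Of 14 fibroblast marker genes 1, Pdgfra, had a TSS-proximal site, while 7 of 10 neuron marker genes had one, against 26.9% of all genes. Whether any receptor gene was transcribed in these cells cannot be read from these data.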

How the data were processed

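H3K27me3 was measured by ChIP-seq in iMEF cells. Per the study's methods, the authors used Trim Galore on the reads, BWA for alignment to mm10 (GRCm38.p6), SAMtools for filtering, Picard to join replicates and MACS to call broad peaks, and scaled libraries down to that of lowest coverage. The submitters' processing notes also name MACS2, deepTools and DESeq2. The pipeline adapted nf-core code. Tool versions, the cutoffs of peak calling and how peaks of several samples became 1 list are not given in the sources used here. The deposited list gives chromosome, start and end alone. It has no value for any library, and 0 columns of per-sample values were left out. The planned comparison of dTAG with untreated cells needed counts per library and was not run.

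Starts were read as 0-based, since the narrowest site was then 200 bp, and positions are printed 1-based. Genes and TSSs came from GENCODE M21 (GRCm38), and RefSeq starts and promoters from GRCm38.p6. A gene had a site if any base of a site was within 1 kb of any of its TSSs. The covered share is the percentage of bases between the first and last annotated base of the gene. CGIs are repeat-masked stretches of at least 200 bp with GC content of at least 50% and an observed/expected CpG ratio of at least 0.6, 15648 on autosomes. The receptor genes are named, except 1 that is counted but not reported by name here and not drawn in plots of single genes, with full values for those with a site at a TSS and for those without but with the highest covered share. Genes outside the family are named if they share a site at a receptor TSS or belong to a list. The receptor genes and all gene lists were chosen with earlier results of these data known. Overlap counts were tested on simulated data. Python 3.11.15, numpy 2.4.6, pandas 2.3.3, scipy 1.17.1, numba 0.67.0 and matplotlib 3.10.9 were used. The alternatives concerned the window, the TSS set, the width and merging of sites, the span and the CGI definition.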

Additional observations from a re-analysis of the deposited data

How the results depend on the processing

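No paired analysis was possible because the list joins all libraries and carries no replicate numbers. The count of 24 receptor genes with a TSS-proximal site stayed within 1.5 times its value in 12 of 13 alternatives, between 22 and 26 genes. Requiring the centre of a site in the window gave 14 genes, against 18.3% of all genes. The cause was not tested. The RefSeq starts and a window of 5 kb were chosen after seeing the data. The median covered share was between 18.2% and 24.7% in 6 alternatives. The number of genes covered to at least 50% was between 12 and 15 in 6, and the number with a CGI 19 or 22 in 2. The median distance was 0 bp in all 4 alternatives. The pooled list limits every value: a gene without a listed site may still carry H3K27me3 below the calling threshold, and a listed site may come from some of the libraries only.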
